A study of Homo sapiens with 8 samples.

Results

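The genes described here carry a cell through G2 and mitosis: the cyclins and CDK1, the mitotic kinases, the spindle checkpoint, the kinetochore, the kinesins and the machinery that separates the daughter cells. The 57 members were taken by symbol from a list, and all 57 were found among the 61125 genes of the table and passed the filter on low counts. RNA was measured after 72 h in U-937, a human pro-monocytic leukemia cell line. The groups were 250 µM L-ascorbic acid (LAA, dissolved in PBS) with 1 µM all-trans retinoic acid (ATRA, dissolved in DMSO), ATRA alone, LAA alone, and the vehicles PBS and DMSO, with 2 libraries each and 8 in all. U-937 is 1 cell line, and the labels do not say whether the libraries of a group came from separate cultures. The p-values therefore cover the spread between the libraries at hand, which may be technical.

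Entry into mitosis is driven by CDK1 bound to cyclin B, which CDC25 phosphatases switch on. The spindle checkpoint then holds the anaphase-promoting complex (APC/C) in check until every kinetochore is attached to microtubules, after which cyclin B and securin are destroyed and the sister chromatids part. Transcripts of these genes are made mostly in late S phase, G2 and mitosis, so that in bulk RNA fewer cells in those phases and less RNA per cell cannot be told apart. ATRA is known as an inducer of differentiation in myeloid leukemia cells.

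The library totals lay between 18462552 and 24166770 estimated counts. Levels are given as TMM-scaled CPM, counts scaled to library size, which compare libraries but not genes, and levels between genes as the authors' FPKM, which is per length. The members together took 0.551% and 0.556% of all counts in the LAA+ATRA libraries, 0.531% in each ATRA library, 0.625% and 0.631% in the LAA libraries, and 0.653% and 0.641% in the vehicle libraries. These shares are not TMM-scaled. The members' summed TMM-scaled CPM was 5947 and 5800 with LAA+ATRA and 5445 and 5535 with ATRA. It was 6014 and 6116 with LAA, and 6172 and 6076 in vehicle. Their summed FPKM was 3231 and 3114 with LAA+ATRA and 2715 and 2836 with ATRA. With LAA it was 3159 and 3137, and in vehicle 3077 and 3043, so the LAA+ATRA sum lay above vehicle in FPKM and below it in CPM. A list of 8 myeloid markers was present in every library, with a summed level of 2120 and 2400 CPM for LAA+ATRA, 2130 CPM in each ATRA library, 1370 and 1410 CPM for LAA, and 1140 and 1200 CPM for vehicle, and the part of this shift in the results was not tested. Of 10 markers of other lineages, 8 stayed under 1 CPM in every library and 5 had no counts at all, and their summed level lay between 63.9 and 115 CPM.

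Counts were above 100 for every member, and the lowest count of any member in any library was 123, for CDC25C. In vehicle the FPKM levels ran over a 62.8-fold range around a median of 34.2. PTTG1, which encodes securin, was highest at 238 ± 2.04 FPKM (SD, n = 2). CCNB2, one of the B-type cyclins, followed at 168 ± 0.722 FPKM, and TPX2, a spindle assembly factor that activates Aurora A, stood at 166 ± 1.8 FPKM. CCNB2 and TPX2 differed by about their spread. CDC20, the coactivator of the APC/C, had 142 ± 0.527 FPKM and CCNB1, the main mitotic cyclin, 132 ± 15.4 FPKM, a spread that reaches its neighbours. At the low end were ASPM, a spindle pole protein, with 5.76 ± 0.262 FPKM and CENPE, a kinetochore motor, with 3.79 ± 0.191 FPKM. In all, 9 members had at least 100 FPKM and 6 had under 10 FPKM.

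**Figure D1:**
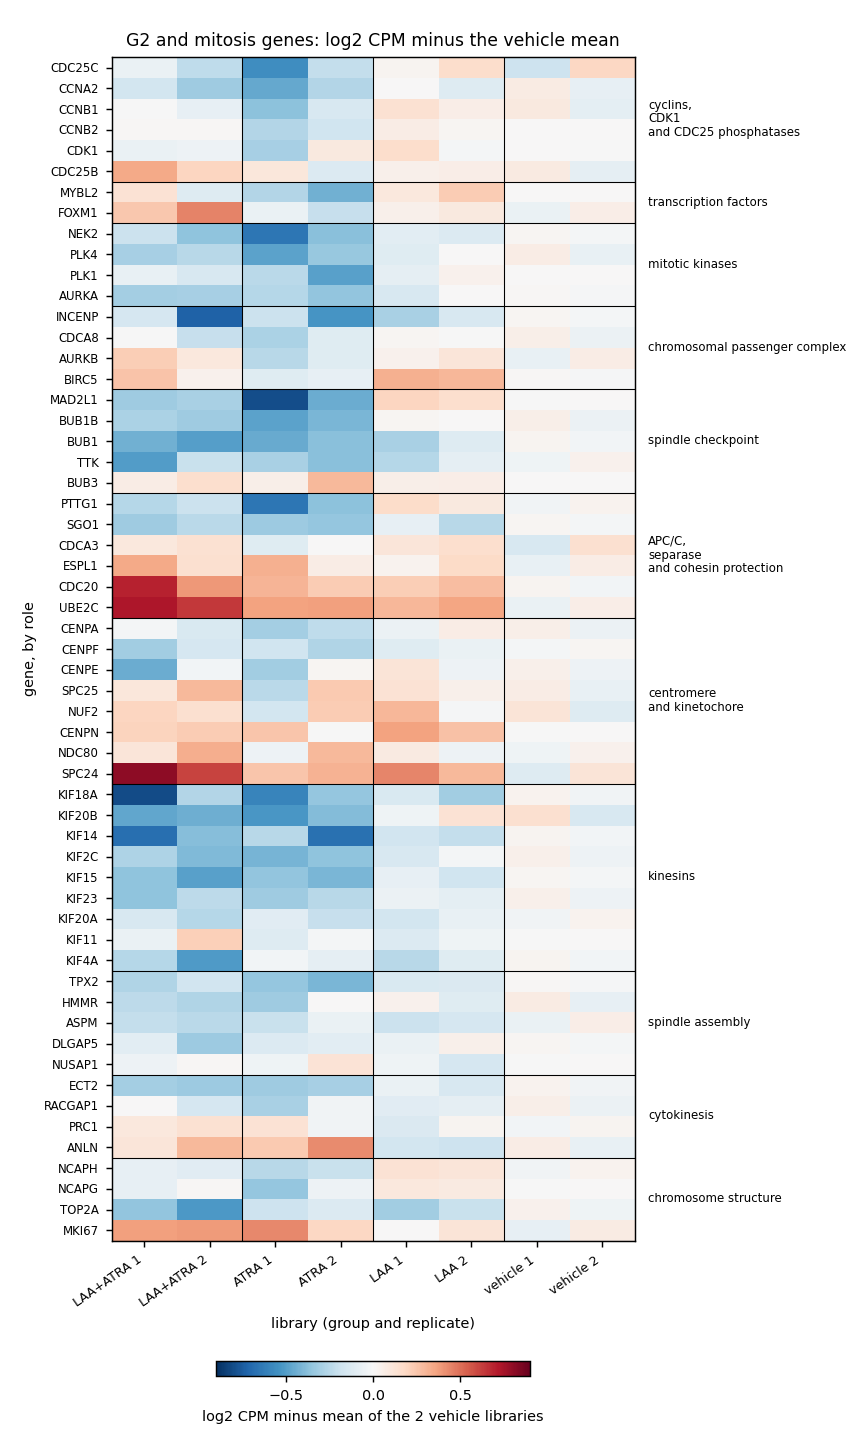
Level of the 57 members in each of the 8 libraries, as log2 CPM minus the mean of the 2 vehicle libraries, with genes ordered by role. Blue cells gather in the ATRA and LAA+ATRA columns for the mitotic kinases, the spindle checkpoint and the kinesins, while UBE2C, CDC20, SPC24 and MKI67 are red there in counts (MKI67 is -0.17 in log2 FPKM with ATRA).

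With ATRA alone most members were slightly lower than in vehicle, and none by as much as 2-fold. In the edgeR quasi-likelihood test with Benjamini-Hochberg adjustment over all genes, 22 of the 57 were called at an adjusted p under 0.05, 3 higher and 19 lower. That is 38.6% of the members, where 42.9% of the 14995 genes tested were called, 21.9% higher and 21.0% lower, so the share of members called is near the background, and 33.3% of the members were called lower. The median log2 fold change of the members was -0.19, beside -0.0036 over all genes tested, and the members ranged from -0.61 to 0.37. The 95% intervals of all 57 lay within 2-fold in either direction, and those of 39 lay within 1.5-fold. Without vehicle replicate 1 the count was 4, none higher and 4 lower, and without vehicle replicate 2 it was 12, 1 higher and 11 lower, where 28.3% and 29.1% of all genes were called in these fits.

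All 4 genes grouped here as mitotic kinases were called lower with ATRA, by 0.31 to 0.51 on the log2 scale. Over all tested genes 21.0% were called lower. Of the kinases placed in other groups, BUB1 and TTK were called lower, and CDK1 and AURKB were not called (-0.09 and -0.18). NEK2, a centrosomal kinase that splits the centrosomes, had 34.9 and 42.2 CPM with ATRA, against 55.6 and 54.1 CPM in vehicle, a log2 fold change of -0.51 ± 0.12 (SE, adjusted p = 0.00345). PLK1, which acts from mitotic entry to cytokinesis, had 186 and 157 CPM with ATRA, against 220 and 220 CPM in vehicle (-0.36 ± 0.11, adjusted p = 0.0151). AURKA, the centrosomal Aurora kinase, had 97.1 and 90.8 CPM with ATRA, against 117 and 115 CPM in vehicle (-0.31 ± 0.098, adjusted p = 0.0235). The groups did not overlap for NEK2, PLK1 or AURKA, nor for PLK4, the kinase of centriole duplication, at -0.41 ± 0.12 (adjusted p = 0.0141). The NEK2 call was kept in every alternative tried. The PLK1 call ended without vehicle replicate 1, vehicle replicate 2 or ATRA replicate 2 (adjusted p 0.0905, 0.082 and 0.103), and the AURKA call without the same libraries (adjusted p 0.141, 0.0996 and 0.0986). PLK4 was lost without vehicle replicate 1 or ATRA replicate 1 (adjusted p 0.127 and 0.0782) and was -0.21 on the log2(FPKM + 1) scale (adjusted p = 0.37).

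In the spindle checkpoint 4 of 5 genes were called lower with ATRA, where 21.0% of all tested genes were. MAD2L1, the Mad2 protein that captures CDC20, had 48.3 and 61.7 CPM with ATRA, against 83.5 and 84.3 CPM in vehicle, a log2 fold change of -0.61 ± 0.12 (adjusted p = 0.00119) and the only member past 1.5-fold. BUB1B, which encodes the checkpoint protein BubR1, had 76.5 and 80.5 CPM with ATRA, against 111 and 103 CPM in vehicle (-0.45 ± 0.095, adjusted p = 0.0023). BUB1, a kinetochore kinase, had 106 and 112 CPM with ATRA, against 148 and 143 CPM in vehicle (-0.41 ± 0.099, adjusted p = 0.00511). In each of these the ATRA libraries lay below the vehicle libraries. TTK, the kinase that starts the checkpoint signal, was called at -0.33 ± 0.12 (adjusted p = 0.0424). BUB3, the partner of BUB1 and BubR1, had 168 and 198 CPM with ATRA, against 162 and 162 CPM in vehicle, and was not called (0.18 ± 0.10, adjusted p = 0.184). Without vehicle replicate 1 the calls of BUB1 and TTK ended (adjusted p 0.0575 and 0.104). TTK was also lost without vehicle replicate 2, LAA replicate 1, LAA replicate 2, ATRA replicate 1 or ATRA replicate 2 (adjusted p 0.199, 0.0586, 0.0591, 0.078 and 0.148). On the log2(FPKM + 1) scale, tested with limma, BUB1B was -0.25 and BUB1 -0.32, and neither was called (adjusted p 0.411 and 0.0888). TTK was not called by DESeq2 or with length and GC offsets (adjusted p 0.058 and 0.0543).

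The APC/C group moved in opposite directions. PTTG1 had 64.9 and 78.8 CPM with ATRA, against 99.7 and 104 CPM in vehicle (-0.50 ± 0.11, adjusted p = 0.00294), a call kept in every alternative. SGO1, which protects centromeric cohesin, was called lower at -0.34 ± 0.12 (adjusted p = 0.0351), but not when any vehicle, LAA or ATRA library was left out, with adjusted p from 0.0518 without LAA replicate 2 to 0.161 without vehicle replicate 1, nor by DESeq2 (adjusted p = 0.0772). UBE2C, the ubiquitin-conjugating enzyme that works with the APC/C, had 39.0 and 39.1 CPM with ATRA, against 29.1 and 31.5 CPM in vehicle (0.37 ± 0.10, adjusted p = 0.0123), and lost its call without vehicle replicate 1 (adjusted p = 0.122). CDC20 had 235 and 223 CPM with ATRA, against 193 and 187 CPM in vehicle, with groups apart but no call (0.27 ± 0.11, adjusted p = 0.0664). ESPL1, which encodes separase, and CDCA3, a trigger of mitotic entry, were not called.

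Among the 9 kinesins 5 were called lower with ATRA, where 21.0% of all tested genes were. KIF20B had 26.8 and 29.4 CPM with ATRA, against 42.5 and 34.9 CPM in vehicle (-0.46 ± 0.12, adjusted p = 0.0099). KIF15, a motor that helps keep the spindle bipolar, had 61.9 and 59.3 CPM with ATRA, against 79.8 and 78.2 CPM in vehicle (-0.38 ± 0.098, adjusted p = 0.00751). KIF2C, a microtubule depolymerase at centromeres, KIF14 and KIF23, both motors of cytokinesis, were called at -0.39, -0.45 and -0.28. Without vehicle replicate 1 all 5 calls ended, with adjusted p from 0.0647 for KIF15 to 0.221 for KIF23. KIF20B was also lost without ATRA replicate 1 (adjusted p = 0.0583), KIF14 without vehicle replicate 2 or ATRA replicate 2 (adjusted p 0.0716 and 0.178), and KIF23 without any vehicle, LAA or ATRA library. On the log2(FPKM + 1) scale KIF15 was -0.12 and KIF14 -0.42, without a call (adjusted p 0.447 and 0.082), and with length and GC offsets KIF14 was -0.33 (adjusted p = 0.0593). KIF11, the motor that pushes the spindle poles apart, stood at -0.06 ± 0.11 and was not called.

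The cyclins and CDK1 were lower in the fit, but 1 of 6 was called. CCNA2, the cyclin of S phase and G2, had 112 and 128 CPM with ATRA, against 162 and 146 CPM in vehicle (-0.36 ± 0.11, adjusted p = 0.0187), a call lost without vehicle replicate 1 or ATRA replicate 1 (adjusted p 0.177 and 0.113). CDK1 had 86.6 and 113 CPM with ATRA, against 107 and 106 CPM in vehicle, so that the groups overlap (-0.09 ± 0.12, adjusted p = 0.581). CCNB1 had 129 and 151 CPM with ATRA, against 177 and 157 CPM in vehicle (-0.26 ± 0.11, adjusted p = 0.0737). Of the transcription factors, MYBL2, the B-MYB subunit of the activating MuvB complex, had 217 and 193 CPM with ATRA, against 260 and 260 CPM in vehicle (-0.34 ± 0.11, adjusted p = 0.025). That call ended without vehicle replicate 1, vehicle replicate 2 or ATRA replicate 2 (adjusted p 0.12, 0.114 and 0.131). FOXM1, which drives G2 transcription, was not called.

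No gene of the chromosomal passenger complex and none of the 8 kinetochore members was called in counts with ATRA alone. AURKB, the kinase of the passenger complex, had 87.4 and 96.3 CPM with ATRA, against 99.2 and 109 CPM in vehicle (-0.18 ± 0.10, adjusted p = 0.176). BIRC5, its survivin subunit, had 61.5 and 63.2 CPM with ATRA, against 66.9 and 65.9 CPM in vehicle (-0.09 ± 0.10, adjusted p = 0.513). CENPE had 24.6 and 30.9 CPM with ATRA, against 31.5 and 29.7 CPM in vehicle (-0.14 ± 0.15, adjusted p = 0.498). The kinetochore members ranged from -0.27 for CENPA, the centromeric histone, to 0.28 for SPC24, a subunit of the NDC80 complex. On the log2(FPKM + 1) scale CENPA was called lower (-0.35, limma, adjusted p = 0.0282) and SPC24 higher (0.46, limma, adjusted p = 0.042).

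In spindle assembly 1 of 5 genes was called, and TPX2 had 405 and 387 CPM with ATRA, against 520 and 511 CPM in vehicle (-0.38 ± 0.092, adjusted p = 0.00511). Of the cytokinesis genes, ANLN, the actin-binding anillin of the cleavage furrow, had 108 and 123 CPM with ATRA, against 96.1 and 87.5 CPM in vehicle (0.34 ± 0.11, adjusted p = 0.0254), and ECT2, the exchange factor that activates RhoA there, was called lower (-0.31 ± 0.11, adjusted p = 0.0362). Of the chromosome structure genes, MKI67, the Ki-67 protein that coats mitotic chromosomes, had 306 and 259 CPM with ATRA, against 216 and 239 CPM in vehicle (0.31 ± 0.11, adjusted p = 0.0322), but its log2(FPKM + 1) difference was -0.17. TOP2A, the topoisomerase that untangles sister chromatids, had 328 and 343 CPM with ATRA, against 383 and 364 CPM in vehicle (-0.16 ± 0.099, adjusted p = 0.228). Leaving out single libraries ended each of these calls. TPX2 was lost without vehicle replicate 1 (adjusted p = 0.0561), and ANLN without vehicle replicate 1, vehicle replicate 2 or ATRA replicate 2 (adjusted p 0.063, 0.205 and 0.147). MKI67 was lost without vehicle replicate 1, vehicle replicate 2, LAA replicate 1, LAA replicate 2 or ATRA replicate 1 (adjusted p 0.245, 0.0711, 0.0536, 0.054 and 0.179), and ECT2 without any vehicle, LAA or ATRA library (adjusted p 0.0628 to 0.19). DESeq2, the length and GC offsets and the log2(FPKM + 1) scale also gave no ECT2 call (adjusted p 0.0835, 0.0527 and 0.16).

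**Figure D2:**
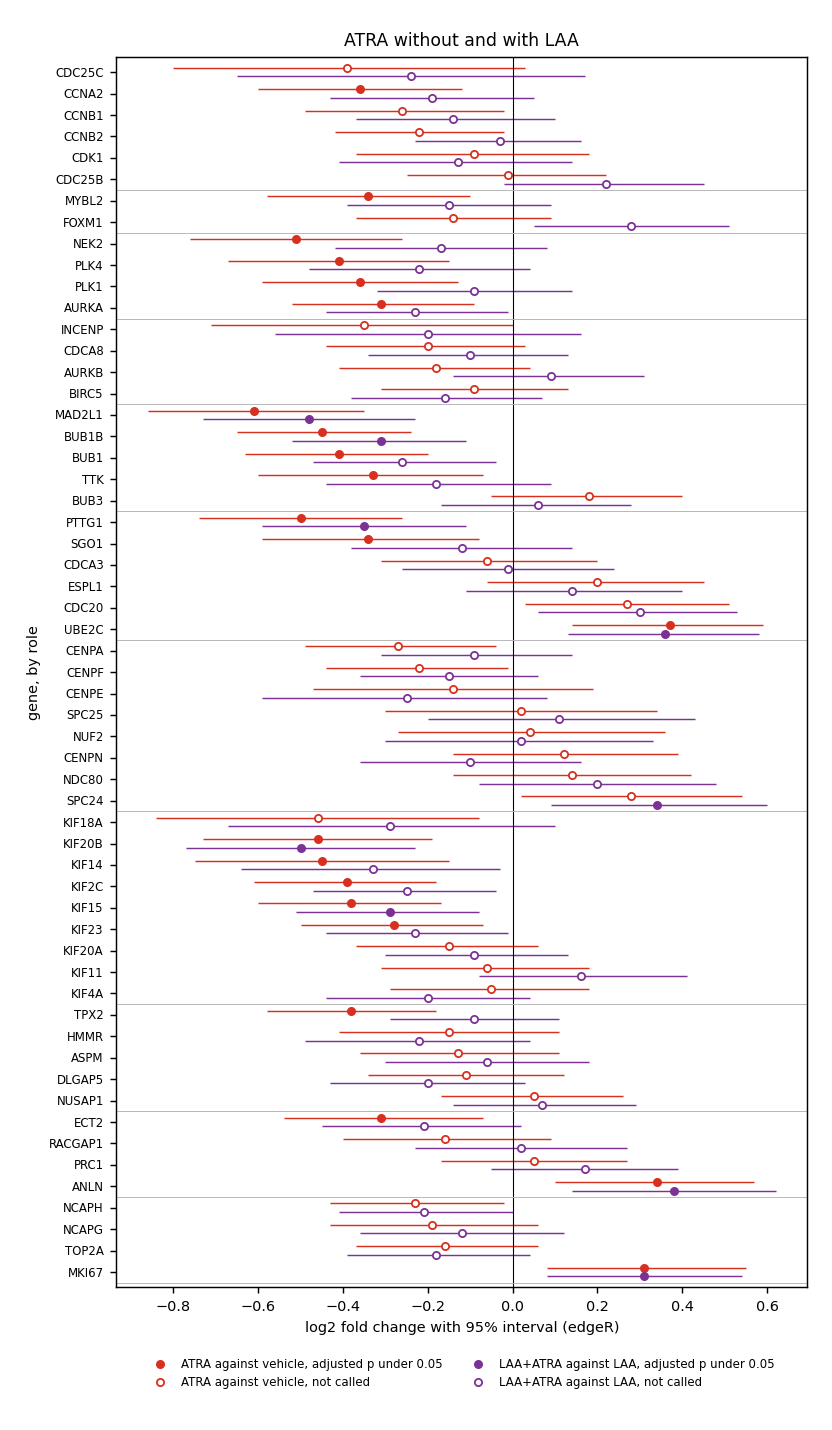
Log2 fold change of each member with its 95% interval from edgeR, for ATRA against vehicle (red) and LAA+ATRA against LAA (purple), with filled points called at an adjusted p under 0.05. Filled red points lie mostly left of 0 in the mitotic kinases, the spindle checkpoint and the kinesins, and the purple points lie mostly on the same side as the red ones.

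The effect of ATRA was measured a second time in cells that also received LAA, with 4 libraries that the first comparison did not use. The spread behind both tests was estimated from all 8 libraries in 1 fit, so the calls of the 2 comparisons are not independent. LAA+ATRA against LAA gave 9 called members, 4 higher and 5 lower, which is 15.8% of the members where 36.4% of all tested genes were called, 18.4% higher and 18.0% lower. The members' median log2 fold change was -0.13, beside 0.00204 over all genes, with a range from -0.50 to 0.38. With offsets for transcript length and GC content the count was 14, 4 higher and 10 lower, and on the log2(FPKM + 1) scale it was 8, 7 higher and 1 lower, where 41.2% and 30.3% of all genes were called. Without LAA replicate 1, and likewise without LAA replicate 2, 1 member was called, and it was lower, where 23.3% and 23.2% of all genes were called. Of the 57 members 51 had the same sign in both comparisons, with a Pearson correlation of 0.85 across genes, which are not independent replicates. The change was larger in the comparison without LAA for 39 of the 57. All 19 members called lower with ATRA alone were negative with LAA present. The same agreement over all tested genes is not given, and whether it is particular to the members was not tested.

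The 8 members called in both comparisons were MAD2L1, BUB1B, PTTG1, KIF15 and KIF20B, all lower, and UBE2C, ANLN and MKI67, all higher in counts, with MKI67 at -0.17 and -0.04 on the log2(FPKM + 1) scale. They make up 36.4% of the members called with ATRA alone and 88.9% of those called with LAA present. MAD2L1 had 67.2 and 68.5 CPM with LAA+ATRA, against 95.7 and 93.3 CPM with LAA (-0.48 ± 0.12, adjusted p = 0.00661). KIF20B had 27.8 and 28.4 CPM with LAA+ATRA, against 37.5 and 42.1 CPM with LAA (-0.50 ± 0.12, adjusted p = 0.00758). PTTG1 had 85.2 and 89.1 CPM with LAA+ATRA, against 114 and 108 CPM with LAA (-0.35 ± 0.11, adjusted p = 0.0253). In all of these the LAA+ATRA libraries lay below the LAA libraries, as they did for BUB1B, with 87.6 and 85.6 CPM with LAA+ATRA, against 108 and 107 CPM with LAA (-0.31 ± 0.095, adjusted p = 0.021). UBE2C had 50.2 and 47.1 CPM with LAA+ATRA, against 37.3 and 38.7 CPM with LAA (0.36 ± 0.10, adjusted p = 0.016). ANLN had 99.0 and 112 CPM with LAA+ATRA, against 81.7 and 80.5 CPM with LAA (0.38 ± 0.11, adjusted p = 0.0164). The ninth call was SPC24, at 0.34 ± 0.12 (adjusted p = 0.0379). Every one of the 9 calls ended when a single LAA library was left out. Without LAA replicate 1 MAD2L1 had an adjusted p of 0.0505, PTTG1 0.153, BUB1B 0.118, UBE2C 0.116, ANLN 0.086, SPC24 0.0751, KIF15 0.232 and MKI67 0.233. Without LAA replicate 2 KIF20B had 0.0834. KIF15 and MKI67 were also lost without vehicle replicate 1 or vehicle replicate 2 (adjusted p 0.0659 to 0.0692). Leaving out LAA+ATRA replicate 1 ended the calls of PTTG1, BUB1B, UBE2C, SPC24 and MKI67, and leaving out LAA+ATRA replicate 2 those of PTTG1, BUB1B, ANLN, KIF15 and MKI67. With length and GC offsets KIF15, SPC24 and UBE2C were not called (adjusted p 0.0866, 0.0653 and 0.0644). On the log2(FPKM + 1) scale MAD2L1, PTTG1 and BUB1B were -0.40, -0.35 and -0.42 without a call (adjusted p 0.0632, 0.0618 and 0.191), and KIF15 was -0.04 (adjusted p = 0.81).

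**Figure D3:**
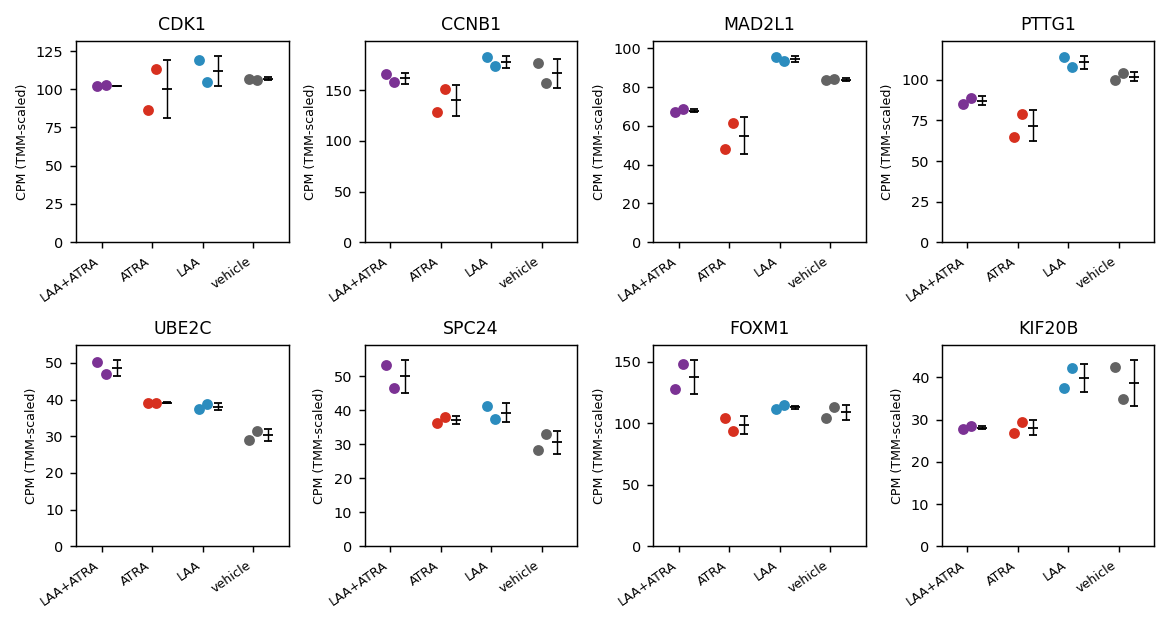
TMM-scaled CPM of 8 members in each library, with 1 point per library and the mean ± SD of the 2 libraries beside it, for LAA+ATRA, ATRA, LAA and vehicle. MAD2L1, PTTG1 and KIF20B are lower in the ATRA groups, UBE2C and SPC24 are highest with LAA+ATRA, and the CDK1 libraries with ATRA (86.6 and 113 CPM) lie on both sides of the vehicle libraries.

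Promoters of G2 and mitosis genes are known for 2 short elements, the cell cycle genes homology region, with the letters TTTGAA or TTTAAA, which the MuvB complexes DREAM and B-MYB-MuvB bind, and CCAAT boxes, which NF-Y binds. RefSeq windows on GRCh38.p14, from 250 bases before to 50 bases after a start, were matched for 49 of the 57 members and gave 61 windows. TTTGAA, or its reverse complement TTCAAA, stood in 62.3% of the member windows and in 15.2% of the 35116 windows of all genes. TTTGAA or TTTAAA stood in 75.4% of the member windows and 24% of all windows, CCAAT or ATTGG in 73.8% and 34.6%, and both kinds of letters in 57.4% and 9.27%. Windows are shown for members called in both ATRA comparisons, PTTG1, BUB1B and KIF20B lower and MKI67 higher in counts. On the log2(FPKM + 1) scale MKI67 was -0.17 with ATRA, without a call. The windows serve to place these letters, which are descriptions of the window and not shown to be bound in these cells. Capitals mark TTTGAA as well as TTTAAA and the CCAAT letters on either strand, and matches can overlap. PTTG1 lies at chr5:160421605-160421851 on the plus strand (the upstream of its 2 windows), BUB1B at chr15:40160819-40161052 plus, KIF20B at chr10:89701340-89701589 plus, and MKI67 at chr10:128126424-128126673 minus. Each is printed 5′ to 3′ and ends before the RefSeq start, and that of PTTG1 or BUB1B ends 30 bases past the GENCODE 29 gene start.
PTTG1: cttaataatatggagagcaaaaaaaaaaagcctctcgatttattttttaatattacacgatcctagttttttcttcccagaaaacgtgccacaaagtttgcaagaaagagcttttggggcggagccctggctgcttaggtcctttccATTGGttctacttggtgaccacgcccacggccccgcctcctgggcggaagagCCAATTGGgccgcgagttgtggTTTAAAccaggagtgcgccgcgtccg
BUB1B: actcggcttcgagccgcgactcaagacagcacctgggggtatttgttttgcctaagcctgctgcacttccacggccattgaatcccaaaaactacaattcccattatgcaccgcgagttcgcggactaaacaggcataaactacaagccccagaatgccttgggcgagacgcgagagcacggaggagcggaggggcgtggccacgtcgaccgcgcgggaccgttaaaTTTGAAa
KIF20B: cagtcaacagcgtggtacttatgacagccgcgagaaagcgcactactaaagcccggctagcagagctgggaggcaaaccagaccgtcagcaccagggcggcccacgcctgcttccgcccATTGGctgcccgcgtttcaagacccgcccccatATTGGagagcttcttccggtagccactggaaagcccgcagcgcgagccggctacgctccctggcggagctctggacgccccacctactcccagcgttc
MKI67: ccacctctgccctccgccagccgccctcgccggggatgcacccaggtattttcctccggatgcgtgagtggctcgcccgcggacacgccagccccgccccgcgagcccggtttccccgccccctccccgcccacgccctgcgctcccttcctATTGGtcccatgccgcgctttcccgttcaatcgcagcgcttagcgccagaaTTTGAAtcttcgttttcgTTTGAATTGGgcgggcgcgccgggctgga
PTTG1 held CCAAT letters and TTTAAA close to the start, BUB1B held TTTGAA alone, and MKI67 held TTTGAA and ATTGG letters. KIF20B held ATTGG letters alone in the part shown. Its full window, which runs 50 bases past the RefSeq start, also held TTTGAA or TTTAAA and was counted so in the shares above. The relation of these letters to the direction of change was not tested.

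Both compounds together against vehicle gave 19 called members, 5 higher and 14 lower, or 33.3% of the members where 44.7% of all tested genes were called, 23.1% higher and 21.5% lower. This comparison shares its vehicle libraries with ATRA against vehicle. The members' median log2 fold change was -0.11, beside 0.0115 over all genes, and no member passed 2-fold. With offsets for length and GC content the split was 8 higher and 11 lower, where 21.9% of all genes were called higher and 24.7% lower. Without vehicle replicate 1 the count was 5, 3 higher and 2 lower, and without vehicle replicate 2 it was 10, 4 higher and 6 lower, where 28.7% and 31.2% of all genes were called.

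The members that rose most with LAA+ATRA were SPC24, UBE2C and CDC20. SPC24 had 53.4 and 46.6 CPM with LAA+ATRA, against 28.2 and 33.0 CPM in vehicle (0.71 ± 0.12, 1.63-fold, adjusted p = 0.000467). UBE2C had 50.2 and 47.1 CPM with LAA+ATRA, against 29.1 and 31.5 CPM in vehicle (0.68 ± 0.10, 1.61-fold, adjusted p = 0.000202). CDC20 had 307 and 249 CPM with LAA+ATRA, against 193 and 187 CPM in vehicle (0.55 ± 0.11, adjusted p = 0.00156). The libraries of the groups were apart for all of these, and the SPC24 and UBE2C calls were kept in every alternative, while the CDC20 call ended with the length and GC offsets (0.17, adjusted p = 0.0926). FOXM1 had 128 and 148 CPM with LAA+ATRA, against 104 and 113 CPM in vehicle (0.35 ± 0.11, adjusted p = 0.0192). It was lost without vehicle replicate 1, vehicle replicate 2 or LAA+ATRA replicate 2 (adjusted p 0.169, 0.0581 and 0.121) and was 0.15 with the offsets (adjusted p = 0.243). MKI67 was the fifth, with 293 and 296 CPM with LAA+ATRA, against 216 and 239 CPM in vehicle (0.37 ± 0.11, adjusted p = 0.0134), lost without vehicle replicate 1 (adjusted p = 0.149) and at -0.12 on the log2(FPKM + 1) scale.

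Kinesins made up 7 of the 14 members called lower with LAA+ATRA, and checkpoint genes 4, out of 9 kinesins and 5 checkpoint genes. Over all tested genes 21.5% were called lower. KIF15 had 61.6 and 56.4 CPM with LAA+ATRA, against 79.8 and 78.2 CPM in vehicle (-0.42 ± 0.099, adjusted p = 0.00413). BUB1 had 108 and 103 CPM with LAA+ATRA, against 148 and 143 CPM in vehicle (-0.46 ± 0.099, adjusted p = 0.00255). TOP2A had 292 and 261 CPM with LAA+ATRA, against 383 and 364 CPM in vehicle (-0.43 ± 0.099, adjusted p = 0.00364), with the opposite sign in FPKM (0.67), and was lost without vehicle replicate 1 (adjusted p = 0.0504). The groups were apart in each. The other kinesins called were KIF14, KIF18A, KIF20B, KIF4A, KIF2C and KIF23, from -0.53 to -0.30, and the other checkpoint genes BUB1B, TTK and MAD2L1, from -0.34 to -0.31. Without vehicle replicate 1 each of these 9 calls ended (adjusted p 0.0565 for KIF14 to 0.186 for KIF23). AURKA and ECT2 were the remaining ones, at -0.30 and -0.32, and both were lost without either vehicle library or either LAA+ATRA library (adjusted p 0.0626 to 0.168). Without vehicle replicate 2 KIF18A, KIF4A, KIF23, BUB1B, TTK and MAD2L1 were not called (0.0551 to 0.174), without LAA+ATRA replicate 1 KIF14, KIF18A, KIF23, TTK and MAD2L1 (0.0836 to 0.282), and without LAA+ATRA replicate 2 KIF2C, KIF4A, BUB1B and MAD2L1 (0.0639 to 0.11). Leaving out LAA replicate 1 or LAA replicate 2 ended KIF23, TTK, MAD2L1 and ECT2 (0.0501 to 0.0771). With the length and GC offsets KIF15, KIF14, KIF20B, KIF23, KIF4A, BUB1B, TTK, MAD2L1, ECT2 and TOP2A were not called, at -0.07 for MAD2L1 to -0.26 for KIF4A. On the log2(FPKM + 1) scale BUB1, KIF15 and MAD2L1 were -0.11, -0.02 and -0.04 (adjusted p 0.532, 0.917 and 0.829). BUB1B, KIF23, ECT2 and KIF4A were -0.18, -0.16, -0.21 and -0.35 there, also without a call (limma, adjusted p 0.559, 0.253, 0.188 and 0.0535). KIF14, KIF18A, KIF20B, KIF2C, TTK and AURKA kept their calls on that scale. CCNB1, CDK1 and CCNA2 had 166 and 158 CPM, 102 and 103 CPM, and 137 and 123 CPM with LAA+ATRA, and none of the 6 genes of the cyclin group was called.

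The values of 4 further members with LAA present follow. PLK1 had 210 and 199 CPM with LAA+ATRA, against 208 and 226 CPM with LAA, and AURKA had 94.0 and 94.1 CPM with LAA+ATRA, against 105 and 116 CPM with LAA. BUB3 had 170 and 180 CPM with LAA+ATRA, against 168 and 169 CPM with LAA, and CENPE had 22.5 and 30.1 CPM with LAA+ATRA, against 33.1 and 29.7 CPM with LAA. None of these was called in that comparison, and the groups overlapped for PLK1 and CENPE.

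No member was called with LAA alone. The edgeR test called 0 of the 57 where 0.0267% of all genes were called. An unadjusted p under 0.05 was reached by 6 members (10.5%), where 18.9% of all genes reached it, and DESeq2 called 0, where it called 4.69% of all genes. The median log2 fold change was -0.00, beside 0.00884 over all genes, and the 95% intervals of 55 members lay within 1.5-fold. Those with an unadjusted p under 0.05 were UBE2C, BIRC5, SPC24, CENPN and CDC20, higher, and TOP2A, lower. UBE2C had 37.3 and 38.7 CPM with LAA, against 29.1 and 31.5 CPM in vehicle, groups that do not overlap. BIRC5 had 82.9 and 81.5 CPM with LAA, against 66.9 and 65.9 CPM in vehicle. TOP2A had 300 and 325 CPM with LAA, against 383 and 364 CPM in vehicle. In a fit on the 4 libraries compared alone, 6 members (10.5%) were called, 5 higher and 1 lower, where 15.4% of all genes were called.

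Adding LAA to ATRA also gave no call among the 57 members in edgeR, where 1.01% of all genes were called. At an unadjusted p under 0.05 there were 14 members, where 18.6% of all genes reached it, and of these 12 were higher and 2, KIF4A and TOP2A, lower. DESeq2 called 4 members, all higher, where it called 4.64% of all genes, and the fits without a low-count filter and with length and GC offsets called 2 each, where they called 3.49% and 1.54% of all genes. FOXM1 came closest, with 128 and 148 CPM with LAA+ATRA, against 104 and 93.7 CPM with ATRA (0.48 ± 0.11, adjusted p = 0.0525). MYBL2 had 284 and 240 CPM with LAA+ATRA, against 217 and 193 CPM with ATRA (0.35, adjusted p = 0.122), and AURKB 121 and 111 CPM with LAA+ATRA, against 87.4 and 96.3 CPM with ATRA (0.34, adjusted p = 0.116). In these 3 genes the LAA+ATRA libraries lay above the ATRA libraries. The members' median was 0.08, beside 0.00354 over all genes, and the intervals of 53 members lay within 1.5-fold. The effect of LAA in the 2 settings, with and without ATRA, shares no library, and 42 of 57 members had the same sign, with a correlation of 0.68 across genes. Genes are not independent replicates, and the same agreement over all tested genes is not given. Both LAA comparisons also had a similar slope of log2 fold change on log2 transcript length over all genes, -0.136 without ATRA and -0.133 with it. The members' fold changes correlated with length at -0.40 and -0.50. The part of length in this agreement was not tested.

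Whether the effect of ATRA differed with LAA was tested as an interaction, and edgeR called 0 of the 57 members, where 0.00667% of all genes were called. Only 2 members, FOXM1 and TPX2, had an unadjusted p under 0.05, where 4.98% of all genes did, and DESeq2 called 0, where it called 0.0867% of all genes. FOXM1 had an interaction of 0.42 ± 0.15 on the log2 scale (adjusted p = 0.869). The intervals of 50 members lay within 1.5-fold, and 43 of the 57 estimates were positive with a median of 0.09.

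Other genes of the pathway, counted in lists of non-members, reached larger fold changes than the members in places. Of all tested genes 42.9% were called with ATRA, 21.0% lower, and 36.4% with LAA present, and the list counts are read against these shares. The DNA replication list had 2 genes higher and 28 lower of 35 with ATRA (85.7%, median -0.49), and 2 higher and 22 lower with LAA+ATRA against LAA (68.6%, median -0.44). Its named genes were ORC6, an origin recognition subunit, at 1.15 ± 0.11 (adjusted p = 4.6e-06), CDT1, a licensing factor, at -1.29 ± 0.14 (adjusted p = 1.77e-05), and MCM6, a helicase subunit, at -0.81 ± 0.091 (adjusted p = 1.94e-05), all with ATRA alone. Cohesin and condensin genes were called lower in 11 and higher in 1 of 16 with ATRA (75.0%, median -0.37) and lower in 9 of 16 with LAA present (56.2%, median -0.34). SMC4, a condensin subunit, was lowest at -1.22 ± 0.11 (adjusted p = 3.43e-06). Without vehicle replicate 1 the cohesin and condensin count with ATRA was 6, and without LAA replicate 1 the count with LAA present was 5, where 28.3% and 23.3% of all genes were called.

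The lists on mitotic entry and the APC/C were mixed, and their shares called with ATRA were near or below the 42.9% of all tested genes. Of 17 tested G2 checkpoint and entry genes, 3 rose and 5 fell with ATRA (47.1%, median -0.22). CDKN1A, the CDK inhibitor p21, rose by 2.72 ± 0.15 with ATRA (adjusted p = 6.15e-08) and by 2.22 ± 0.15 with LAA present (adjusted p = 3.84e-07). CHEK1, the checkpoint kinase, and CDC25A, the phosphatase it restrains, were at -0.76 ± 0.12 and -0.75 ± 0.12 with ATRA. Of 17 APC/C genes 3 rose and 4 fell with ATRA (41.2%, median 0.03), with ANAPC1, its largest subunit, at -1.14 ± 0.095. Of 13 DREAM and MuvB genes none rose and 5 fell with ATRA (38.5%, median -0.11), with E2F5 at -2.15 ± 0.26 and the E2F partners TFDP2 at -1.19 ± 0.15 and TFDP1 at -0.70 ± 0.091. Of 26 other kinetochore genes 2 rose and 7 fell (34.6%, median -0.13), and of 29 spindle pole and motor genes 5 rose and 8 fell (44.8%, median -0.05). Leaving out vehicle replicate 1 brought the calls with ATRA to 3 in the APC/C list, 3 in the kinetochore list and 5 in the spindle pole list, and leaving out vehicle replicate 2 brought them to 3, 3 and 8, where 28.3% and 29.1% of all genes were called. With LAA present 8 of 17 G2 checkpoint genes were called (47.1%, where 36.4% of all genes were), and 5 without LAA replicate 1 or LAA replicate 2.

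**Figure D4:**
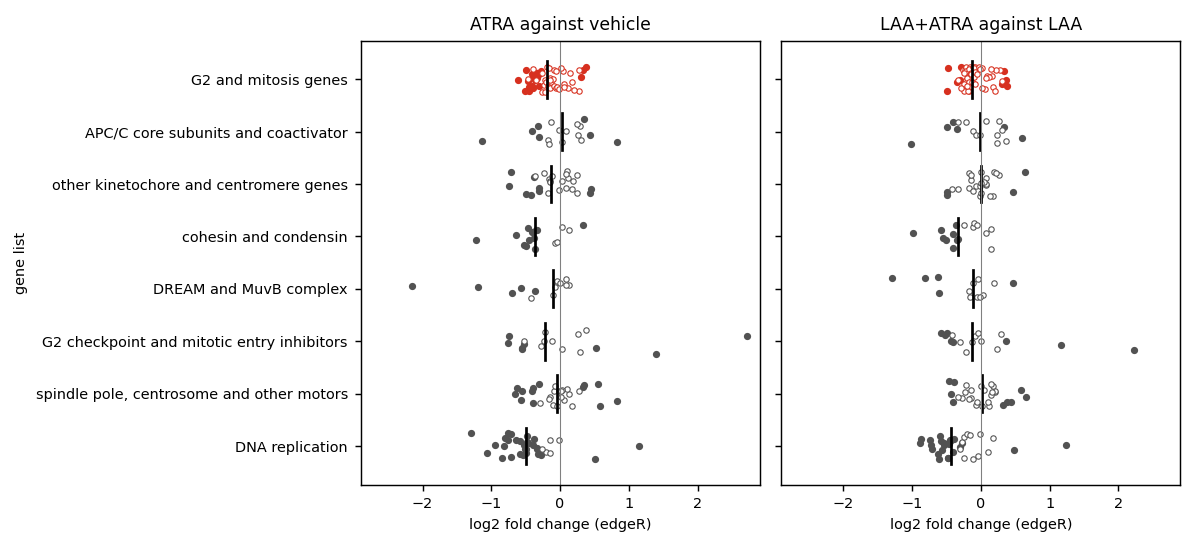
Log2 fold change from edgeR of each tested gene in the member list (red) and 7 lists of related genes (grey), for ATRA against vehicle and LAA+ATRA against LAA, with filled points called at an adjusted p under 0.05 and a bar at each median. The DNA replication list has its median at -0.49 with ATRA, the member list at -0.19.

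The deposited FPKM values went against the counts for TOP2A and MKI67. TOP2A had 160 and 99.7 FPKM with LAA+ATRA, against 78.0 and 80.5 FPKM in vehicle, while its counts were lower with LAA+ATRA. The log2(FPKM + 1) difference was 0.67 ± 0.23 (limma, adjusted p = 0.0557). The gene length implied by counts and FPKM, on the log2 scale relative to the vehicle mean, was -1.37 and -0.82 for TOP2A with LAA+ATRA, against 0.06 and -0.06 in vehicle. MKI67 had 26.3 and 41.0 FPKM with LAA+ATRA, against 34.8 and 37.0 FPKM in vehicle, and an implied length of 0.82 and 0.21 with LAA+ATRA. Over the 8 libraries the implied length ranged over 1.43 for TOP2A and 0.85 for MKI67, beside a median range of 0.28 over all genes and 0.24 over the members. The direction of TOP2A and MKI67 therefore depends on which deposited value is read. INCENP, BUB1B and PRC1 had implied length ranges of 0.8, 0.71 and 0.56. Signs also differed for ASPM, FOXM1 and CENPN with ATRA alone, and for ASPM, NCAPH and BUB3 with LAA+ATRA against vehicle, all without a call in either value. With LAA+ATRA against LAA they differed for TOP2A and MKI67. They also differed there for ASPM, CDCA3, CENPF, NCAPH, NUF2, BUB3, RACGAP1 and CENPN, again without a call in either value. PRC1 with LAA+ATRA against vehicle was called in FPKM (0.51, limma, adjusted p = 0.0106) but not in counts (0.12, edgeR, adjusted p = 0.366). ANLN, at 0.53, and HMMR, SGO1, CCNA2, NEK2 and TPX2, from -0.53 to -0.24, were also called only in FPKM there (limma, adjusted p 0.00507 to 0.0461). With LAA+ATRA against LAA, CDC20, FOXM1, ESPL1 and PRC1 were called higher only in FPKM (limma, adjusted p 0.00672 to 0.0436). With ATRA alone this held for HMMR and CENPA, lower, and SPC24, higher (limma, adjusted p 0.0272 to 0.042).

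**Figure D5:**
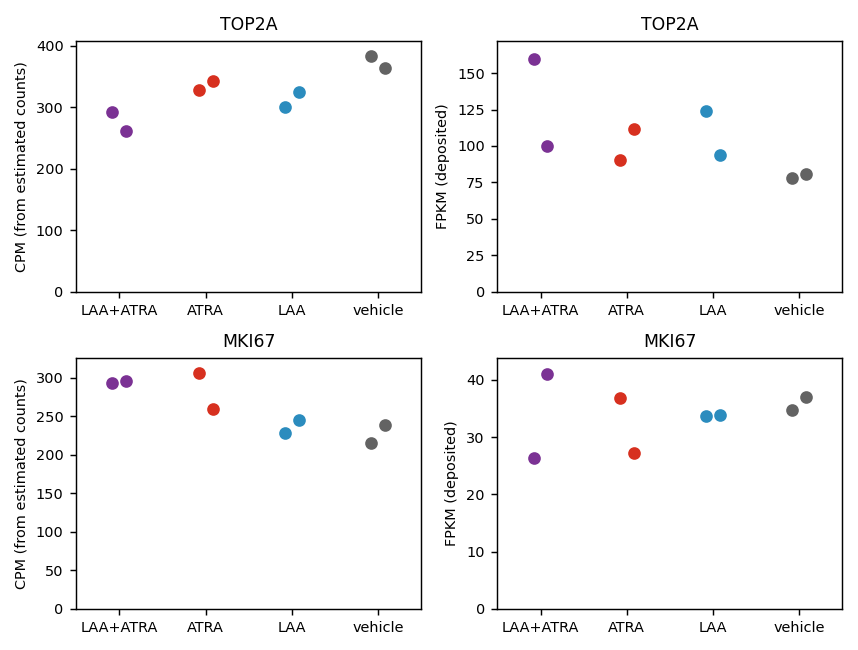
TOP2A and MKI67 in each library as TMM-scaled CPM from the estimated counts (left) and as the authors' FPKM (right), with 1 point per library. TOP2A with LAA+ATRA lies below vehicle in CPM (292 and 261 against 383 and 364) and above it in FPKM (160 and 99.7 against 78.0 and 80.5).

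Fold changes followed transcript length over all genes. The slope of the log2 fold change per doubling of the longest GENCODE 29 transcript was -0.103 for ATRA against vehicle, -0.1 for LAA+ATRA against LAA, -0.236 for LAA+ATRA against vehicle, -0.136 for LAA against vehicle and -0.133 for LAA+ATRA against ATRA. Across the 57 members the correlation with log2 length was -0.03, -0.15, -0.31, -0.40 and -0.50 in the same order. UBE2C, with the shortest transcript at 914 bases, and MKI67, with the longest at 12678 bases, both rose in counts in the ATRA comparisons, though MKI67 was negative in FPKM. The part of length in the other results was not tested beyond the offsets given above.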

How the data were processed

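Per the labels' protocols, polyadenylated RNA was captured on beads before library construction (NEBNext Ultra II). Salmon 1.8.0 and DESeq2 1.36.0 appear in the submitters' processing notes, with GRCh38 and hg38 as builds. Annotation release, index and strand setting were not given in the sources. Estimated counts (expected counts) per gene were deposited unscaled. The authors' FPKM values are per kilobase and per library size, and how they were scaled is not stated.

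The estimated counts were rounded, which changed 16.5% of the values. filterByExpr in edgeR 4.0.16 (R 4.3.3) left 14995 of 61125 genes, libraries were scaled by TMM, and a quasi-likelihood F test with 4 group means over all 8 libraries (4 residual degrees of freedom) was run for 6 comparisons, with Benjamini-Hochberg adjustment over all tested genes. Calls are at an adjusted p under 0.05, two-sided. DESeq2 1.42.0 and limma 3.58.1 on log2(FPKM + 1) were alternatives, and 18 alternatives were tried in all. The script was tested on simulated data. Symbols, lengths and positions came from GENCODE 29 on GRCh38, and promoter windows from RefSeq (GRCh38.p14). Library totals were at least 18462552, and counting error is largest for the members with few counts, down to 123 for CDC25C.

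The members and lists were chosen with earlier results of these data known. All 57 members could be named, with values per library for 15 fixed genes and for up to 6 called members per comparison with the smallest adjusted p. Replicate numbers did not pair the libraries.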

Additional observations from a re-analysis of the deposited data

How the results depend on the processing

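The counts of called members depended on single libraries, and the share of all genes called also changed when 1 library was left out. Over the fits that left out 1 library each, the count ran from 4 to 25 for ATRA against vehicle, from 1 to 13 for LAA+ATRA against LAA and from 5 to 24 for LAA+ATRA against vehicle, and was 0 throughout for LAA against vehicle, LAA+ATRA against ATRA and the interaction. On the log2(FPKM + 1) scale without a filter, 12 members were called for ATRA against vehicle, 3 for LAA+ATRA against LAA and 12 for LAA+ATRA against vehicle, where 16.1%, 13% and 16.8% of all genes were called. With length and GC offsets 14 were called for LAA+ATRA against LAA and 2 for LAA+ATRA against ATRA, where 41.2% and 1.54% of all genes were called. For the last of these, DESeq2 called 4 and the fit without a low-count filter 2, and for LAA against vehicle the fit on only the libraries compared called 6. The shares over all genes were 4.64%, 3.49% and 15.4% in these 3 fits. The cause was not tested. Among the calls of single members, the direction turned for 2 genes on the FPKM scale: MKI67 was -0.17, -0.18 and -0.17 for ATRA against vehicle, -0.04 in all 3 FPKM settings for LAA+ATRA against LAA, and -0.12, -0.13 and -0.12 for LAA+ATRA against vehicle, and TOP2A was 0.67 in all 3 settings for LAA+ATRA against vehicle. Of 900 single-gene values under alternatives, 641 kept direction and call, 247 lost the call and 12 turned. Same-numbered libraries did not deviate together (correlations from -0.0727 to 0.0771). With the replicate number as a block 18 members were called for ATRA against vehicle, 7 for LAA+ATRA against LAA and 19 for LAA+ATRA against vehicle. That fit called 41%, 34.4% and 43.2% of all genes in these comparisons. It called 0 members for LAA against vehicle, LAA+ATRA against ATRA and the interaction, where 0.0133%, 0.2% and 0.00667% of all genes were called.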
